A study of Arabidopsis thaliana with 18 samples.

Results

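Seed storage globulins and oleosins, the proteins that fill the protein bodies and coat the oil bodies of the Arabidopsis seed, were followed through 5 genes. The genes are PAP85 (AT3G22640) and AT1G03890 for the storage globulins, and OLEO3 (AT5G51210), AT3G01570 and AT2G25890 for the oleosins. Each was taken as the probe set that the array annotation assigns to that gene alone, which gave 5 of the 22746 probe sets tested. The members are named by gene family, with no threshold on their values.

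The study used Affymetrix ATH1 arrays, on which each transcript is read by a set of short probes, to compare mutants of the Arg/N-end rule pathway with the wild type Col-0. The prt6-1 mutant lacks normal function of PRT6, a ubiquitin ligase that recognises arginine at a protein's first position, and ate1 ate2 is mutated in both arginyl-transferases that attach this arginine. Whole seeds of prt6-1 and of Col-0 (3 arrays each) were sampled after 48 h in the cold and 24 h of imbibition in constant light on agar medium. Whole seedlings of prt6-1, ate1 ate2 and Col-0, grown for 7 d in long days on medium with sucrose after 3 d in the cold, were given argon for 2 h (hypoxia) or kept in air for the same time (2 arrays for each of the 6 groups). The labels describe the seeds as after-ripened, from plants raised together in 1 tray, and name no other mutation or agent. They do not say whether replicates came from separate batches of tissue, so p-values measure the spread between these samples. RNA came from whole organs, so fewer cells of a type and less RNA per cell cannot be told apart.

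Storage globulins and oleosins are made in the maturing embryo under regulators of seed maturation. Globulins are cut by vacuolar processing enzymes as they reach the protein storage vacuole, and are broken down to amino acids after germination. Oleosins form a shell around stored oil, which is burned through β-oxidation and the glyoxylate cycle as the seedling establishes, and their transcripts normally fade by then. PAP85 is a vicilin-type globulin of the cupin superfamily. AT1G03890 is a legumin-type globulin whose gene lies directly beside the cruciferin gene CRU2 in the TAIR10.1 annotation. OLEO3, AT3G01570 and AT2G25890 encode oleosins, small proteins whose hydrophobic hairpin is anchored in the oil body.

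All values are log2 expression values as deposited, and a difference of log2 values is given with its limma standard error (SE) or its 95% confidence interval. A probe set was called when its limma p, adjusted by Benjamini-Hochberg over all 22746 probe sets, was under 0.05. Probe sets differ in how strongly they bind, so levels were compared between samples and not between genes. Over the 12 seedling arrays all 5 members had means below 5.38, the value under which the dimmest 33.3% of probe sets lay. Signal over background is unknown for these values. AT1G03890 was also among the dimmest 33.3% in the 6 seed arrays.

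1 array stood apart within its own group. Replicate 1 of the Col-0 seeds correlated with its own group at a mean r of 0.986 across probe sets, against 0.990 to 0.994 for the other 5 seed arrays and 0.995 to 0.997 for the seedling arrays. It held 204 probe sets (0.897%) more than 1 log2 unit above both other Col-0 seed arrays and 55 (0.242%) more than 1 below both. Among the higher ones were 3 of the 5 members and 8 of 15 late embryogenesis abundant (LEA) genes, which encode protective proteins of the dry seed. Results on genotype that rest on Col-0 seeds are therefore also given without that array. Its choice was made with earlier results of these data known. Leaving it out lowers the Col-0 mean of those 3 members and of other genes high in that array. Their calls in that setting are therefore not separate support.

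The tissues could be checked on few markers. The mean of 3 photosynthesis markers (RCA, LHCB4.1 and LHCB4.2) was 8.38 to 9.15 over the seed arrays, against 13.3 to 13.6 over the seedling arrays. All 15 measured LEA genes were higher in seeds than in air-grown seedlings of the same genotype. Of all probe sets, limma called 38% higher in seeds in Col-0 and 37.2% in prt6-1. None of 4 listed endosperm markers had a single-gene probe set here, so the share of endosperm RNA was not measured. PRT6, ATE1 and ATE2 have no probe set named here, and their levels were not analysed here.

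Imbibed seeds held more of all 5 transcripts than seedlings, and PAP85 showed this most. PAP85 stood at 12.09, 12.76 and 12.78 in prt6-1 seeds, and at 12.55, 8.98 and 8.78 in Col-0 seeds. In the 12 seedling arrays PAP85 lay between 4.30 and 4.61 with a median of 4.44, so no seed array overlapped a seedling array. All 5 members separated the 6 seed arrays from the 12 seedling arrays in this direction, as did 29.1% of all probe sets. In prt6-1, seeds exceeded air-grown seedlings by 8.03 (SE 0.69), which is 262-fold. In Col-0, seeds exceeded air-grown seedlings by 5.61 (SE 0.69), which is 48.7-fold.

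AT1G03890, the other globulin, was close to its seedling level in seeds. Its values were 5.00, 5.59 and 5.90 in prt6-1 seeds and 4.70, 4.47 and 4.69 in Col-0 seeds, against 3.90 to 4.31 with a median of 4.07 over the seedling arrays. Seeds were again above every seedling array, but the lowest Col-0 seed was only just so. The seed excess was 1.35 in prt6-1, which is 2.54-fold, and 0.57 (SE 0.19) in Col-0, which is 1.49-fold.

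Among the oleosins, OLEO3 differed least between seed arrays. It stood at 8.14, 8.38 and 8.37 in prt6-1 seeds and 8.998, 8.45 and 8.21 in Col-0 seeds, against 4.29 to 4.67 with a median of 4.48 in seedlings. Seeds exceeded seedlings by 3.88 in prt6-1, which is 14.74-fold, and by 3.95 (SE 0.17) in Col-0, which is 15.5-fold. The seed arrays were thus far from the seedling arrays in both genotypes.

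AT3G01570 read 9.65, 9.56 and 10.17 in prt6-1 seeds and 10.64, 8.40 and 8.60 in Col-0 seeds, against 4.58 to 5.31 with a median of 4.92 in seedlings. Its seed excess was 4.95 in prt6-1, which is 30.9-fold, and 3.95 (SE 0.43) in Col-0, which is 15.5-fold. AT2G25890 read 7.24, 7.72 and 7.80 in prt6-1 seeds and 8.84, 6.49 and 6.64 in Col-0 seeds. In seedlings AT2G25890 spanned 3.89 to 6.49, the widest range of the 5 members there. Its lowest Col-0 seed array and its highest Col-0 seedling array, replicate 2 under hypoxia, both read 6.49. The seed excess of AT2G25890 was 3.29 in prt6-1, which is 9.80-fold, and 1.41 (SE 0.46) in Col-0, which is 2.65-fold.

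**Figure D1:**
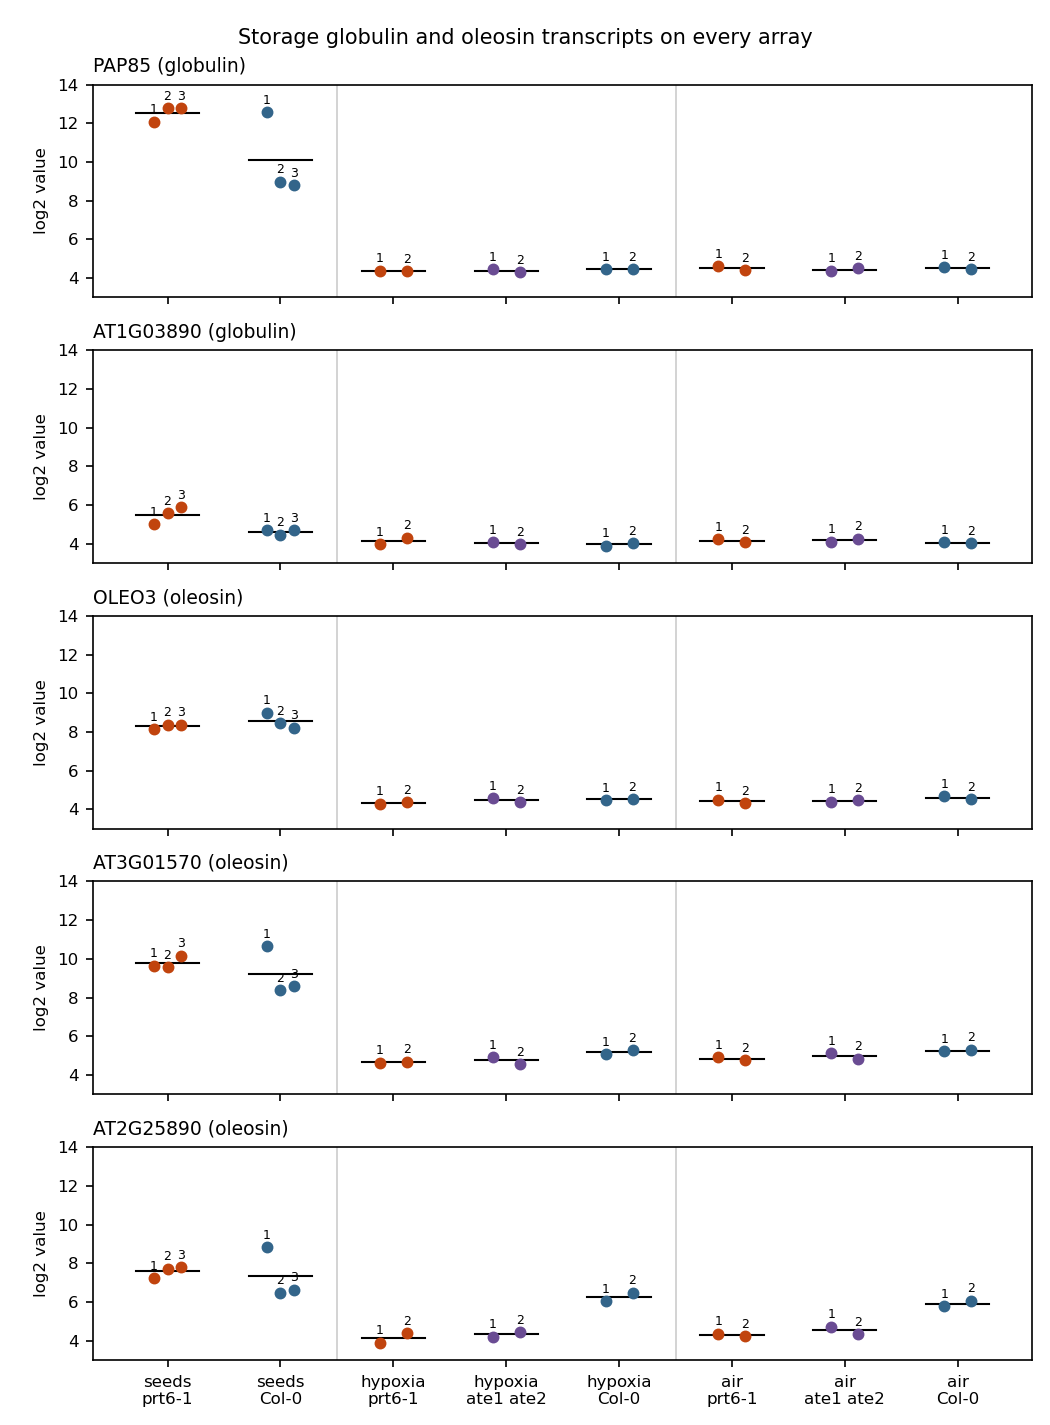
Log2 value of each of the 5 members on each of the 18 arrays, with 1 panel per gene. Points are arrays, numbers beside points are replicates and horizontal lines are group means. Seeds lie above seedlings in each panel, Col-0 seed replicate 1 sits apart from the other Col-0 seeds for PAP85, AT3G01570 and AT2G25890, and in seedlings AT2G25890 is highest in Col-0.

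In limma all 5 members were called higher in Col-0 seeds than in Col-0 air-grown seedlings, with adjusted p between 1.43e-12 for OLEO3 and 0.0129 for AT2G25890. In the same comparison 38% of all probe sets were called higher, so a call alone is common. In prt6-1 all 5 were also called higher, against 37.2% of all probe sets. Without Col-0 seed replicate 1 the excess in Col-0 was 4.38 for PAP85, 0.53 for AT1G03890, 3.73 for OLEO3, 3.24 for AT3G01570 and 0.65 for AT2G25890. All 5 were still called, with 37% of probe sets called higher. The call of AT2G25890 in Col-0 was lost when the fit held only the arrays compared (limma adjusted p 0.0787) or left out air Col-0 replicate 1 (1.26, adjusted p 0.0875). That of AT1G03890 was lost without air Col-0 replicate 2 (0.54, adjusted p 0.0723). Seeds and seedlings were also grown on different media and light regimes, so tissue and growth conditions cannot be told apart.

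The first genotype question was whether prt6-1 seeds keep more reserve-protein transcript than Col-0 seeds after 24 h of imbibition. With all 6 seed arrays none of the 5 members was called, while 4.11% of all probe sets were. At an unadjusted limma p under 0.05, a threshold to which that share does not apply, there were 2 of the 5, both globulins. PAP85 averaged 12.54 ± 0.39 in prt6-1 seeds and 10.10 ± 2.12 in Col-0 seeds (SD, n = 3 each), a difference of 2.44 (95% interval 0.48 to 4.40) with a limma adjusted p of 0.167. The groups overlapped, because Col-0 replicate 1 at 12.55 lay inside the prt6-1 range.

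AT1G03890 averaged 5.49 ± 0.46 in prt6-1 seeds and 4.62 ± 0.13 in Col-0 seeds (SD, n = 3 each). It was the 1 member whose groups did not overlap, which 12.3% of all probe sets also showed in the higher direction. Its difference was 0.87 (95% interval 0.40 to 1.35), or 1.83-fold, with a limma adjusted p of 0.0589. That value lies close to the threshold. AT1G03890 was called after a further quantile normalization (1.07, adjusted p 0.0446), after median centring (0.90, adjusted p 0.0495), with an intensity trend (adjusted p 0.0356) and without prt6-1 replicate 1 (1.12, adjusted p 0.0142). It was not called with array weights, a robust prior or a replicate block, nor without any other single seed array. With each of the 6 seed arrays left out in turn, its difference fell as low as 0.67 and its limma adjusted p rose as high as 0.177.

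The 3 oleosins had smaller differences. AT3G01570 averaged 9.79 ± 0.33 in prt6-1 seeds and 9.21 ± 1.24 in Col-0 seeds (SD, n = 3 each), a difference of 0.58 with an interval of -0.60 to 1.75. AT2G25890 averaged 7.59 ± 0.30 in prt6-1 seeds and 7.32 ± 1.32 in Col-0 seeds, a difference of 0.27 with an interval of -0.97 to 1.503. OLEO3 averaged 8.30 ± 0.14 in prt6-1 seeds and 8.55 ± 0.40 in Col-0 seeds, a difference of -0.26 with an interval of -0.70 to 0.18. Limma adjusted p for the oleosins ran from 0.522 to 0.846. In these 6 arrays the range between the highest and lowest value was 3.99 for PAP85, 1.43 for AT1G03890, 0.86 for OLEO3, 2.24 for AT3G01570 and 2.35 for AT2G25890.

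For PAP85, AT3G01570 and AT2G25890 much of the spread within the Col-0 seeds came from 1 array. Col-0 replicate 1 exceeded the mean of the other Col-0 seeds by 3.67 for PAP85, 2.14 for AT3G01570 and 2.28 for AT2G25890, by 0.67 for OLEO3 and by 0.12 for AT1G03890. Set against the prt6-1 mean, the array was 0.01 higher for PAP85, 0.85 higher for AT3G01570 and 1.25 higher for AT2G25890, with -0.79 for AT1G03890. In that array the globulin AT1G03890 thus read like the other Col-0 seeds while PAP85 read like prt6-1 seeds.

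Without Col-0 seed replicate 1, an array chosen after seeing the data, limma called 3 of the 5 members higher in prt6-1 seeds. The share of all probe sets called higher was 3.4%. PAP85 was 3.66 higher (SE 0.21), which is 12.7-fold, with an adjusted p of 0.000163. AT3G01570 was 1.29 higher (SE 0.19), which is 2.45-fold, with an adjusted p of 0.00794. AT2G25890 was 1.02 higher (SE 0.18), which is 2.03-fold, with an adjusted p of 0.0153. The difference for OLEO3 was -0.03 with an interval of -0.34 to 0.27, and that for AT1G03890 was 0.92 with an adjusted p of 0.065. In this setting 1 of 2 globulins and 2 of 3 oleosins were called, and both globulins had an unadjusted p under 0.05, AT1G03890 with an interval of 0.36 to 1.47.

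**Figure D2:**
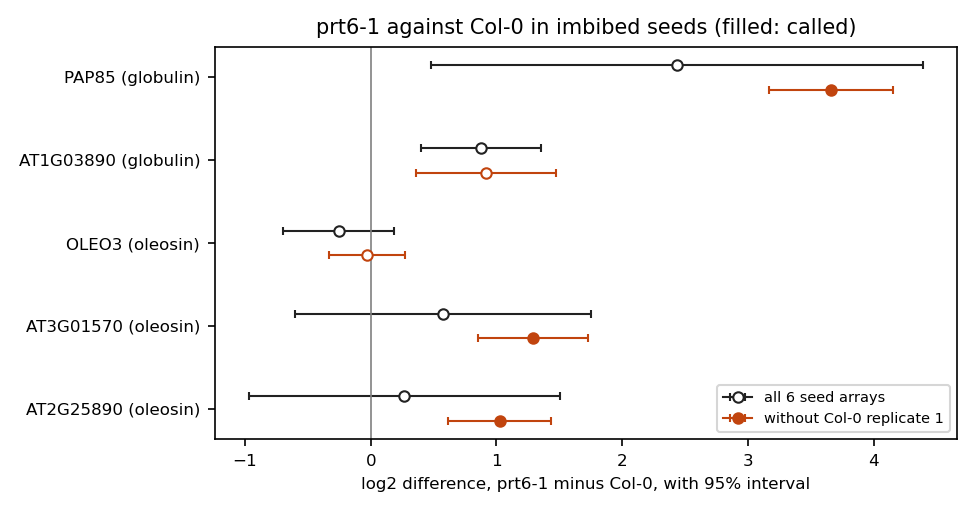
Difference in log2 value of prt6-1 seeds minus Col-0 seeds for the 5 members, with all 6 arrays and without Col-0 seed replicate 1; points are limma estimates and bars are 95% confidence intervals. PAP85 lies at 3.66 without that array and at 2.44 with it, and its interval is narrower without it, while OLEO3 stays near 0.

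Other reserve genes in the same seeds were taken from lists of related genes. DELTA-VPE, a vacuolar processing enzyme known from the developing seed coat, stood at 9.39, 9.47 and 9.47 in prt6-1 seeds and 11.29, 11.30 and 11.22 in Col-0 seeds. It did not share the gap of Col-0 replicate 1. Its difference was -1.82 (SE 0.10, limma adjusted p 7.13e-05), or -1.81 without that array, and 1.91% of all probe sets were called lower. Of the 9 sorting and processing genes measured, 1 other was called, GAMMA-VPE at 0.58 (adjusted p 0.0405), or 0.58 without Col-0 replicate 1 (adjusted p 0.0489). That call was lost without any 1 of the other 5 seed arrays (adjusted p 0.0571 to 0.139), with the replicate number as a block (0.0861) and after a further quantile normalization (0.0529).

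AT2G28490, a further cupin-family globulin, read 9.49, 10.09 and 9.76 in prt6-1 seeds and 9.68, 7.00 and 6.88 in Col-0 seeds. The pattern over the arrays resembled that of PAP85, with Col-0 replicate 1 beside the mutant. Its difference was 1.93 (limma adjusted p 0.148), or 2.84 without that array (adjusted p 0.0002). EEL, a bZIP factor of seed maturation, read 6.82, 7.10 and 7.14 in prt6-1 seeds and 7.07, 5.46 and 5.31 in Col-0 seeds. The difference was 1.08 (limma adjusted p 0.188), or 1.64 without that array (adjusted p 0.000651). BZIP53, the only other maturation regulator measured, read 9.86, 9.79 and 9.76 in prt6-1 seeds and 9.77, 9.83 and 9.66 in Col-0 seeds. With all arrays 0 of the 5 other storage genes and 0 of the 15 LEA genes were called by limma, with 2 of each at an unadjusted p under 0.05. Without Col-0 replicate 1 the counts were 1 of 5 and 4 of 15, all higher in prt6-1. In that setting 3.4% of all probe sets were called higher. Col-0 replicate 1 exceeded the mean of the other Col-0 seeds by 2.75 for AT2G28490 and by 1.68 for EEL. Its removal lowers their Col-0 mean, as for many LEA genes, so these calls are not separate support.

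Of 6 other oil body genes, only AT3G05500, which encodes a lipid droplet associated protein, was called with all seed arrays, at -0.61 (limma adjusted p 0.0201), or -0.54 without Col-0 replicate 1 (adjusted p 0.0235). Without that array AT3G18570, of the same list, was also called, at 0.74 (adjusted p 0.0379) against 0.29 with all arrays (adjusted p 0.698), so that 1 gene was called higher and 1 lower. The call of AT3G05500 was lost with the replicate number as a block (adjusted p 0.0561) and without Col-0 replicate 3 or any 1 prt6-1 replicate (adjusted p 0.07 to 0.0873). With all arrays and without Col-0 replicate 1 limma called 0 of 5 oil breakdown genes, with 2 at an unadjusted p under 0.05 in each. Isocitrate lyase (ICL), an enzyme of the glyoxylate cycle, read 14.64, 14.66 and 14.59 in prt6-1 seeds and 14.28, 14.31 and 14.41 in Col-0 seeds. Beside these results, the mean of the 3 photosynthesis markers was 9.03 to 9.15 in prt6-1 seeds and 8.38 to 8.88 in Col-0 seeds, and LHCB4.2 was called higher in prt6-1 (0.68, adjusted p 0.0319), or 0.54 without Col-0 replicate 1. That call was lost without any 1 of the other 5 seed arrays (adjusted p 0.053 to 0.119) and after a further quantile normalization (0.0509). The part of that shift in the reserve-gene values was not tested.

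The second question was the effect of each mutant in seedlings. AT2G25890 was lower in both mutants. Under hypoxia it read 3.89 and 4.40 in prt6-1 and 4.204 and 4.45 in ate1 ate2, against 6.04 and 6.49 in Col-0. In air it read 4.37 and 4.22 in prt6-1 and 4.73 and 4.34 in ate1 ate2, against 5.77 and 6.06 in Col-0. All 8 mutant arrays were below all 4 Col-0 arrays, with the highest mutant array at 4.73 and the lowest Col-0 array at 5.77. Of all probe sets, 3.02% separated these arrays in the same direction.

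In air, limma called AT2G25890 lower in prt6-1 by -1.62 (SE 0.19, adjusted p 0.000127), a 3.07-fold decrease. It was the 1 member called there, against 1.97% of all probe sets called lower. In ate1 ate2 in air the difference was -1.38 (SE 0.19, adjusted p 0.000569), a 2.60-fold decrease and again the 1 member called, against 1.62% of probe sets. Under hypoxia the difference was -2.12 in prt6-1 (SE 0.19, adjusted p 1.33e-05), a 4.35-fold decrease, with 2 of 5 members called lower against 3.64% of probe sets. In ate1 ate2 under hypoxia it was -1.94 (SE 0.19, adjusted p 3.46e-05), a 3.83-fold decrease, with 1 of 5 members called against 1.51% of probe sets. The comparisons within a condition share the same Col-0 arrays.

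The AT2G25890 calls held with each of the 12 seedling arrays left out in turn. The differences then ran from -1.77 to -1.47 for prt6-1 and -1.57 to -1.19 for ate1 ate2 in air, and from -2.38 to -1.87 and -2.16 to -1.72 for these mutants under hypoxia. They were lost in 3 of the 4 comparisons in 1 fit of all 18 arrays (adjusted p 0.141, 0.257 and 0.0841), which pools the Col-0 seed spread of 1.32 into the error. The call for prt6-1 under hypoxia stood in that fit (adjusted p 0.0355).

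Tissue markers also differed between the seedling genotypes. Of 3 photosynthesis markers, LHCB4.2 was called lower in prt6-1, at -0.54 under hypoxia (limma adjusted p 0.0159) and -0.60 in air (adjusted p 0.00988), and 0 were called in ate1 ate2. The hypoxia call was lost without any 1 of the 4 arrays compared (adjusted p 0.0581 to 0.155) and in the fit of all 18 arrays (0.0609), and the air call without Col-0 replicate 2 (0.0548) or prt6-1 replicate 2 (0.1). The mean of the 3 was 13.3 in all prt6-1 arrays and 13.4 to 13.5 in ate1 ate2, against 13.5 to 13.6 in Col-0. The mean of 2 root markers, the expansins EXPA7 and EXPA18, was 6.79 to 6.87 in prt6-1 and 7.15 to 7.27 in ate1 ate2 under hypoxia, against 7.13 to 7.15 in Col-0. In air it was 7.78 to 7.86 in prt6-1 and 8.16 to 8.52 in ate1 ate2, against 7.47 to 7.66 in Col-0, and EXPA7 was called higher in ate1 ate2 (0.97, adjusted p 0.000138). The part of these shifts in the reserve-gene values was not tested.

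AT3G01570 had smaller differences. Under hypoxia it read 4.64 and 4.69 in prt6-1 and 4.93 and 4.58 in ate1 ate2, against 5.07 and 5.30 in Col-0. In air it read 4.92 and 4.76 in prt6-1 and 5.11 and 4.84 in ate1 ate2, against 5.22 and 5.31 in Col-0. Within each condition the arrays of each mutant lay below those of Col-0. This was as common as 27.2% of all probe sets for prt6-1 and 25.8% for ate1 ate2 under hypoxia, and 23% and 21% in air. Over both conditions the highest mutant array (5.11) passed the lowest Col-0 array (5.07).

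Limma called AT3G01570 only in prt6-1 under hypoxia, at -0.52 (SE 0.14, adjusted p 0.0402), a 1.43-fold decrease. The call was lost after a further quantile normalization (-0.45, adjusted p 0.0504), after median centring (-0.46, adjusted p 0.0626), in the fit of all 18 arrays (adjusted p 0.806) and without any of the 4 arrays compared. Without Col-0 replicate 1 and replicate 2 the values were -0.63 and -0.40, and without prt6-1 replicate 1 and replicate 2 they were -0.49 and -0.54. The differences in the other 3 comparisons were -0.43 in ate1 ate2 under hypoxia (adjusted p 0.139), -0.42 in prt6-1 in air (adjusted p 0.113) and -0.29 in ate1 ate2 in air (adjusted p 0.333).

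OLEO3 had differences of -0.18, -0.04, -0.18 and -0.17 in prt6-1 and ate1 ate2 under hypoxia and in prt6-1 and ate1 ate2 in air, with limma adjusted p of 0.474 to 0.94. Of the 5 oleosin calls in these comparisons, 4 were AT2G25890 and 1 was AT3G01570.

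Neither globulin member was called in seedlings. PAP85 under hypoxia read 4.38 and 4.35 in prt6-1 and 4.44 and 4.30 in ate1 ate2, against 4.47 and 4.45 in Col-0. In air it read 4.61 and 4.41 in prt6-1 and 4.37 and 4.49 in ate1 ate2, against 4.55 and 4.44 in Col-0. Its values moved within a range of 0.31 over all 12 seedling arrays. AT1G03890 under hypoxia read 3.96 and 4.31 in prt6-1 and 4.07 and 3.97 in ate1 ate2, against 3.90 and 4.03 in Col-0. In air AT1G03890 read 4.23 and 4.07 in prt6-1 and 4.10 and 4.25 in ate1 ate2, against 4.08 and 4.01 in Col-0. The 8 globulin differences from Col-0 ran from -0.10 to 0.17 and 0 were called by limma, with 0 at an unadjusted p under 0.05. In either direction, 5.19% and 2.62% of all probe sets were called in prt6-1 and ate1 ate2 under hypoxia, and 4.15% and 3.71% in air. The globulins' intervals reached no further than -0.33 and 0.44. At these dim values, in Col-0 as in the mutants, a change and above all a decrease may not be detectable.

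**Figure D3:**
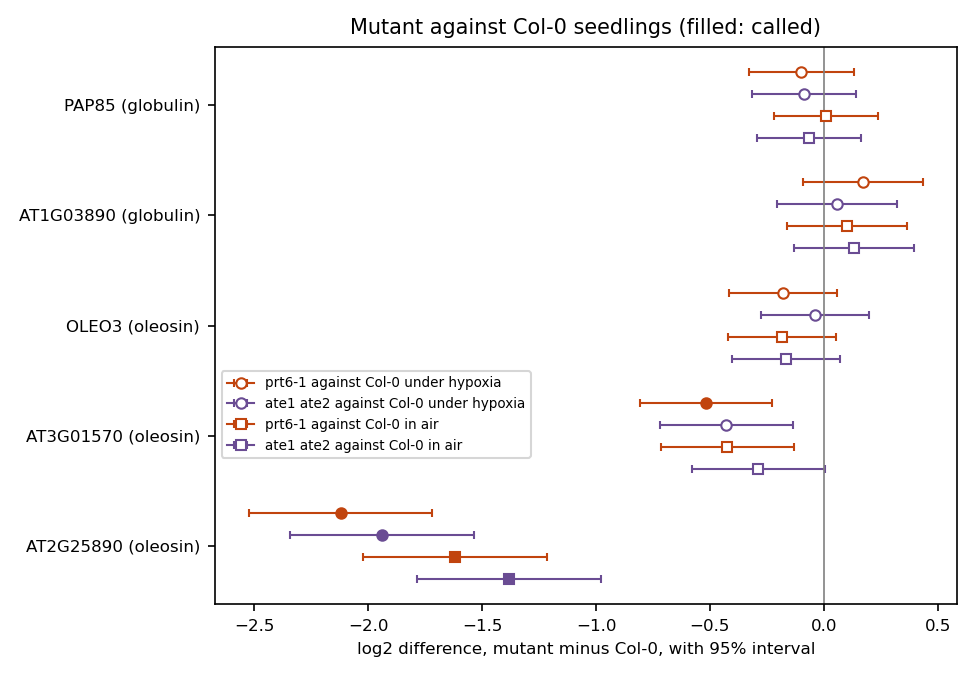
Difference in log2 value of each mutant minus Col-0 in seedlings for the 5 members, under hypoxia and in air; points are limma estimates and bars are 95% confidence intervals. AT2G25890 lies between -2.12 and -1.38 in all 4 comparisons, AT3G01570 between -0.52 and -0.29, and the globulins within -0.10 to 0.17.

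The mutants were also set against each other. Limma called 0 of the 5 members between ate1 ate2 and prt6-1 in air, where 0.127% of all probe sets were called, and 0 under hypoxia, where 0.163% were, with 0 at an unadjusted p under 0.05 in both. For AT2G25890 the difference was 0.24 in air with an interval of -0.16 to 0.64, and 0.18 under hypoxia with an interval of -0.22 to 0.59.

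Hypoxia for 2 h did not move the members beyond the test's threshold in any genotype. Limma called 0 of 5 in prt6-1, in ate1 ate2 and in Col-0, where 4.08%, 2.92% and 2.1% of all probe sets were called, with 0 members at an unadjusted p under 0.05. Beside this, both root markers were called lower under hypoxia in prt6-1 and in ate1 ate2, with medians of -0.99 and -1.13. The 15 member differences of hypoxia from air ran from -0.22 to 0.35. The highest was AT2G25890 in Col-0 at 0.35 (interval -0.05 to 0.75, adjusted p 0.576), while in prt6-1 and ate1 ate2 that gene gave -0.15 and -0.21. The response of AT2G25890 was 0.50 lower in prt6-1 than in Col-0 (SE 0.27, adjusted p 0.67) and 0.56 lower in ate1 ate2 than in Col-0 (SE 0.27, adjusted p 0.659). Neither interaction passed the threshold. Limma called an interaction for 0 of 5 members in either mutant, with 0 at an unadjusted p under 0.05, where 0.167% of probe sets were called in prt6-1 and 0.308% in ate1 ate2.

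Ranked by group mean, AT2G25890 was highest in seeds, at 7.59 in prt6-1 and 7.32 in Col-0 (6.56 without Col-0 replicate 1), followed by Col-0 seedlings under hypoxia at 6.27 and in air at 5.92. The mutant seedlings came last, with ate1 ate2 in air at 4.53 and under hypoxia at 4.33, and prt6-1 in air at 4.29 and under hypoxia at 4.14. The seed groups overlapped each other, as did both Col-0 seedling groups and all 4 mutant seedling groups. The gap between Col-0 and mutant seedlings was the 1 break in the seedling order. For the other 4 members the 6 seedling groups stayed close to each other, with ranges over the 12 arrays of 0.31 for PAP85, 0.41 for AT1G03890, 0.38 for OLEO3 and 0.73 for AT3G01570.

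Genes whose values followed a member over the 12 seedling arrays were ranked by Pearson's r among 674 named probe sets with an SD of at least 0.3. These values describe arrays that share their groups. For AT2G25890 the 3 highest were DELTA-VPE (r = 0.979), AT1G70880 (r = 0.978) and AT1G52000 (r = 0.970). DELTA-VPE lay between 4.67 and 4.97 in the mutant arrays, against 5.89 to 6.47 in the Col-0 arrays. AT1G70880 lay between 5.45 and 5.81 in the mutant arrays, against 6.26 to 6.69 in Col-0, and AT1G52000 between 4.89 and 5.23 against 5.78 to 5.96. All 3 separated mutant from Col-0 seedlings as AT2G25890 did, and so did 3.02% of all probe sets. Because they were chosen by r to AT2G25890, this separation largely follows from the choice and is not separate support.

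**Figure D4:**
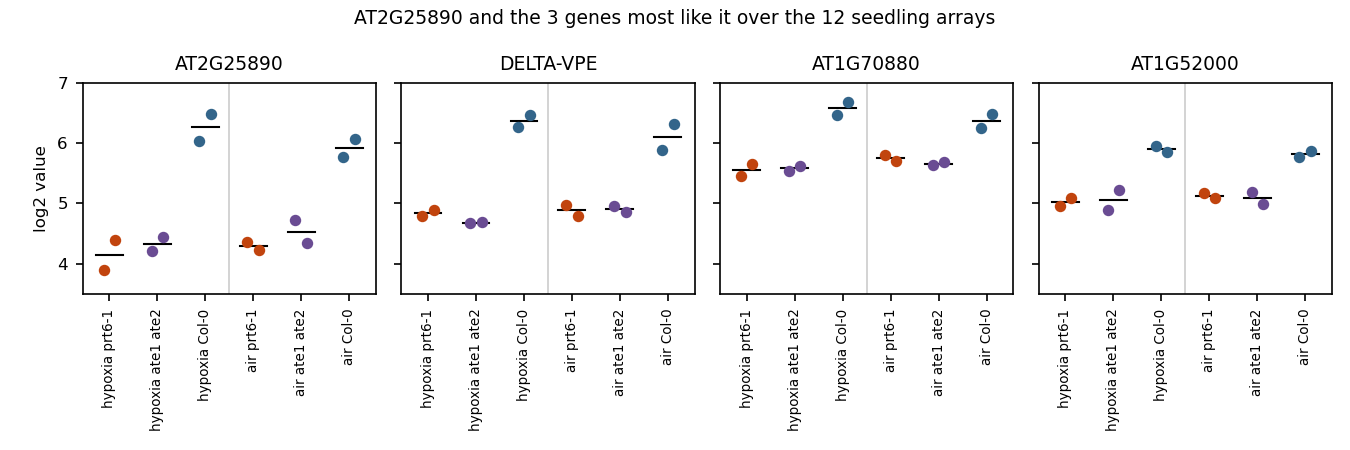
Log2 value of AT2G25890 and of the 3 genes with the highest r to it on each of the 12 seedling arrays, grouped by condition and genotype; points are arrays and lines are group means. In every panel the mutant arrays lie below the Col-0 arrays in air and under hypoxia.

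For AT3G01570 the 3 highest were AT1G68620 (r = 0.920), the LEA gene AtLEA4-1 (r = 0.910) and AT3G54940 (r = 0.906). Each was lower in every mutant array than in every Col-0 array, as were 3.02% of all probe sets. Choice by r to a member with lower means in the mutants favours this order. For OLEO3, with an SD of 0.113 over these arrays, the highest r was 0.826 for AT4G14090. PAP85 and AT1G03890 had SDs of 0.087 and 0.124, and their highest r values were 0.756 for AT5G17700 and 0.740 for AT1G07690. At that spread the order for the globulins and OLEO3 carries little.

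DELTA-VPE, lower in prt6-1 seeds, was also lower in the seedlings of both mutants. In limma its difference under hypoxia was -1.53 in prt6-1 (adjusted p 1.29e-05) and -1.69 in ate1 ate2 (adjusted p 5.44e-06). In air it was -1.22 in prt6-1 (adjusted p 7.59e-05) and -1.20 in ate1 ate2 (adjusted p 0.000103). The globulin AT2G28490 was lower in seedlings as well, by -1.14 in prt6-1 and -1.22 in ate1 ate2 under hypoxia, and by -1.06 and -0.92 in air (limma adjusted p 0.000138 to 0.00111). Those 4 calls were lost in the fit of all 18 arrays (adjusted p 0.462 to 0.67). It read 3.64 to 3.97 in the 8 mutant arrays, against 4.48 to 5.13 in the 4 Col-0 arrays.

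Lists of other reserve genes gave mixed directions in seedlings. Of 5 other storage genes, 1 was called higher and 1 lower in prt6-1 in each condition, and 0 higher and 1 lower in ate1 ate2 in each condition. The gene called lower was AT2G28490 and the gene called higher was AT4G36700, another cupin-family gene, at 1.10 under hypoxia and 1.98 in air. The hypoxia call of AT4G36700 was lost without any 1 of the 6 hypoxia arrays (adjusted p 0.0516 to 0.241). Of 15 LEA genes limma called 8 lower in prt6-1 and 8 lower in ate1 ate2 under hypoxia, with medians of -0.63 and -0.74. In air 6 and 2 were called lower, with medians of -0.42 and -0.33. Of all probe sets, 3.64% and 1.51% were called lower in prt6-1 and ate1 ate2 under hypoxia, and 1.97% and 1.62% in air. Among the LEA genes AtLEA4-1 gave differences of -1.78 in prt6-1 and -1.48 in ate1 ate2 under hypoxia, and -1.64 and -1.12 in air (limma adjusted p 0.000599 to 0.0171). The call in ate1 ate2 in air was lost without either air Col-0 array (-1.12 each) or without ate1 ate2 replicate 2 (-0.60). The ate1 ate2 arrays in air stood apart for LEA genes, with AtLEA4-1 at 5.58 in replicate 1 and 4.54 in replicate 2, against 6.18 and 6.17 in Col-0. AT3G15670, the other LEA gene called there (-0.89, adjusted p 0.0373), read 4.97 and 3.93 in these arrays, against 5.31 and 5.37 in Col-0. Its call was lost without any 1 of 7 of the 12 seedling arrays (adjusted p up to 0.194). In fits chosen after seeing the data, 5 LEA genes were called lower without ate1 ate2 replicate 1 and 0 without replicate 2, with 5 at an unadjusted p under 0.05 in the second. The medians of all probe sets in these comparisons lay between -0.02 and -0.01. Of 6 other oil body genes, 1 was called in 3 of the 4 comparisons, AT2G47780, which encodes a rubber elongation factor family protein of lipid droplets, and it was higher in the mutants. Its call in prt6-1 under hypoxia was lost without any 1 of the 4 arrays compared (adjusted p 0.0502 to 0.154). The 3 oleosins had medians of -0.52 in prt6-1 and -0.43 in ate1 ate2 under hypoxia, and -0.42 and -0.29 in air. Each of these medians is the value of AT3G01570. OLEO3 lay between -0.18 and -0.04, and AT2G25890 between -2.12 and -1.38.

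Among genes of storage oil breakdown ICL was called higher in both mutants. It read 12.56 and 12.34 in prt6-1 and 12.65 and 12.74 in ate1 ate2 under hypoxia, against 8.32 and 7.86 in Col-0. In air ICL read 12.48 and 12.16 in prt6-1 and 12.99 and 12.94 in ate1 ate2, against 7.27 and 8.02 in Col-0. Every mutant array was above every Col-0 array. The differences were 4.36 in prt6-1 and 4.60 in ate1 ate2 under hypoxia and 4.67 and 5.31 in air (limma adjusted p 2.06e-10 to 1.28e-08), between 20.6-fold and 39.7-fold. Of the 4 other breakdown genes, 1 was called in 1 comparison, AT4G10790 in prt6-1 in air at 0.44 (adjusted p 0.0449). That call was lost without any 1 of the 4 arrays compared (adjusted p 0.133 to 0.207) and without any 1 hypoxia array (0.0505 to 0.0651).

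**Figure D5:**
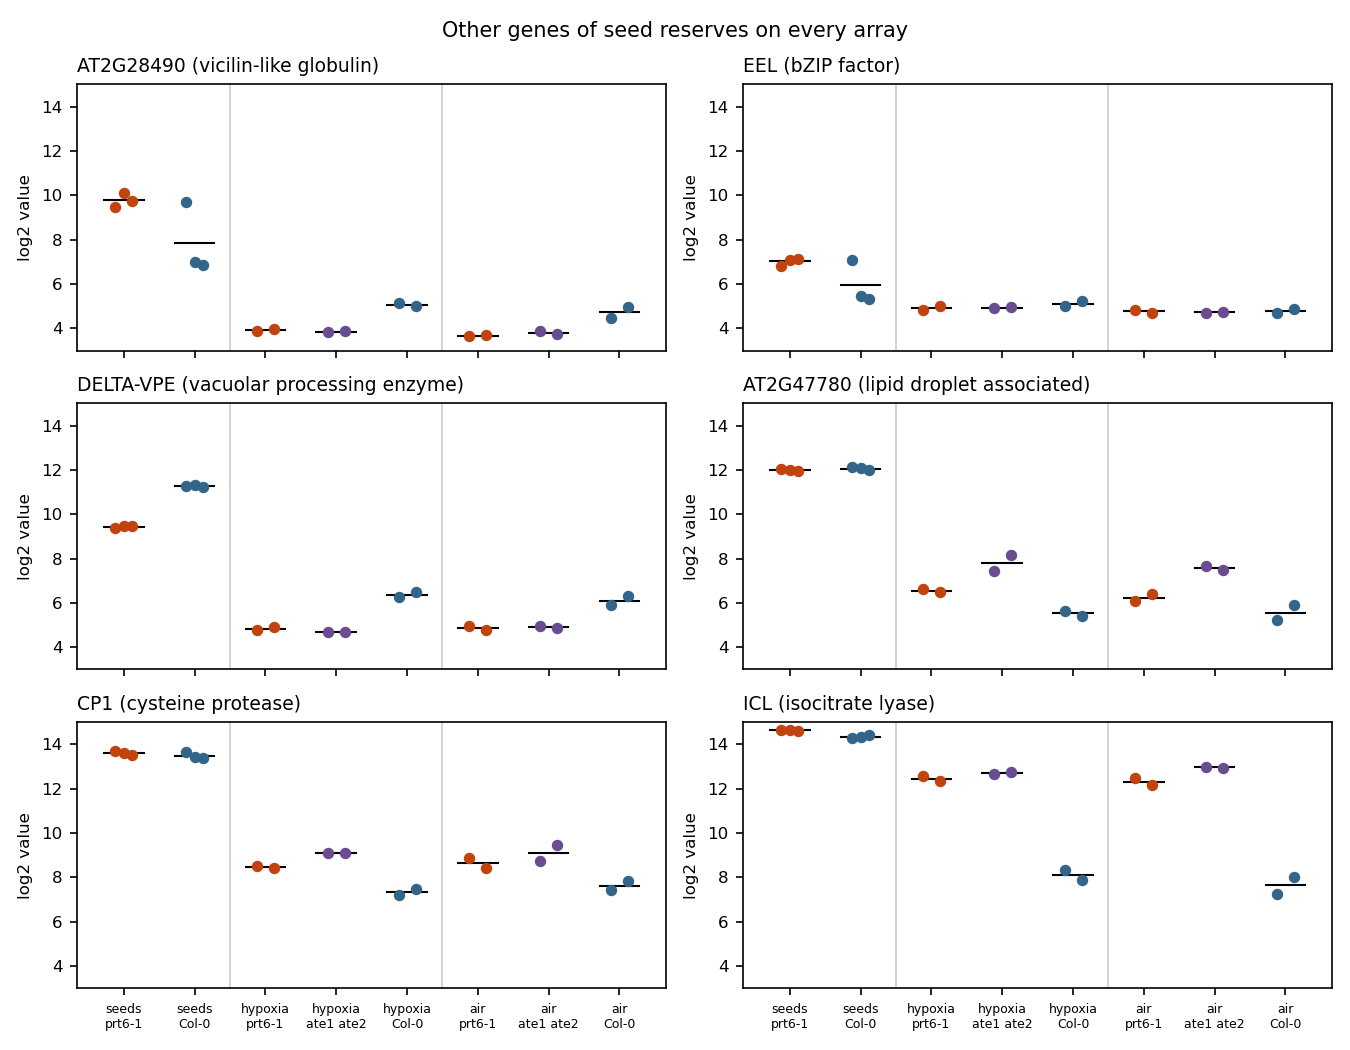
Log2 values of other reserve genes on each of the 18 arrays by group; points are arrays and lines are group means. DELTA-VPE is lower in prt6-1 than in Col-0 in seeds and seedlings, AT2G28490 is lower in the mutant seedlings, and ICL is higher in the mutant seedlings and above 14 in all seeds.

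The prt6-1 effect in seeds was last set against the prt6-1 effect in air-grown seedlings, in 1 fit of all 18 arrays. With all arrays limma called 0 of 5 members for this difference, with 5.61% of probe sets called. At an unadjusted limma p under 0.05, to which that share does not apply, there were 3 members, PAP85, AT2G25890 and AT1G03890. The difference was 2.43 for PAP85 (SE 0.98, adjusted p 0.177), 1.89 for AT2G25890 (SE 0.65, adjusted p 0.109) and 1.00 for AT3G01570 (adjusted p 0.395). For AT1G03890 it was 0.77 (SE 0.26, adjusted p 0.102) and for OLEO3 -0.07 (adjusted p 0.909).

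Without Col-0 seed replicate 1, left out after seeing the data, 3 of 5 were called higher, against 4.21% of probe sets. The difference was then 3.65 for PAP85 (adjusted p 4.46e-08), 2.65 for AT2G25890 (adjusted p 1.37e-05) and 1.71 for AT3G01570 (adjusted p 0.000179). For OLEO3 it was 0.15 (adjusted p 0.655) and for AT1G03890 it was 0.81 (adjusted p 0.0748). Leaving out prt6-1 seed replicate 1 instead called AT1G03890 (1.02, adjusted p 0.00593). In that setting without the Col-0 array, AT2G25890 was 1.02 higher in prt6-1 seeds on the log2 scale. With all seed arrays it was 0.27 higher (interval -0.97 to 1.503) and not called. The same gene was 1.62 lower in prt6-1 seedlings in air.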

How the data were processed

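The deposited values are log2 expression values, with 1 value for each probe set on each array. The submitters' processing notes credit them to RMA and to affy, with no version in the labels read here. RMA forces the distribution of values on the arrays to be alike, and so hides any shift common to the bulk of transcripts. The labels do not say if the seed and the seedling arrays went through RMA together. Scanner files were not used here, so signal over background is unknown and the number of arrays limits precision. Array medians were 6.70 to 6.88, and any pair of arrays differed in at least 99.97% of probe sets.

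Of 22810 probe sets, 64 controls were left out. The platform annotation, updated through the TAIR10.1 gene table, gave 1 gene for 13513 probe sets (13436 with a locus code), several for 503 and none for 8730. Only single-gene probe sets are named, and no coordinates are given because the array names no genome build.

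Groups came from the labels. The 6 seed arrays and the 12 seedling arrays (6 group means) had separate fits in limma 3.58.1 under R 4.3.3 (lmFit and eBayes), and seeds were compared with seedlings in 1 fit of 18 arrays. Every adjusted p comes from limma, is two-sided and is adjusted by Benjamini-Hochberg over 22746 probe sets. There were 15 comparisons and no replicate block. Alternatives were a further quantile normalization, median centring, array weights, an intensity trend, a robust prior, a replicate block, other sets of arrays in the fit, the dimmest 33.3% of probe sets left out, single-gene probe sets only, an adjusted p under 0.01, and each array left out in turn.

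On simulated data with 200 changed probe sets among 22746, the fit for prt6-1 against Col-0 seeds called 4.48%, 70.1% and 87.9% of changes of 0.5, 1 and 2 log2 units, with 2.7% of its calls false. That for prt6-1 against Col-0 seedlings in air called 34.3%, 97% and 100%, with 5.52% false.

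The 5 members are named throughout, with the 3 single-gene probe sets most like each by Pearson's r over the seedling arrays. Of each of 10 related lists, up to 4 called genes with the largest differences could be named per comparison, or else the 2 with the largest values. The text names some of these. Measured of listed genes were 5 of 13 other storage, 6 of 27 other oil body, 2 of 20 maturation regulator, 9 of 15 sorting and processing, 0 of 9 oil synthesis, 5 of 25 oil breakdown, 15 of 23 LEA, 0 of 4 endosperm, 3 of 20 photosynthesis and 2 of 6 root genes. Members and lists, and the choice of the array left out, were made with earlier results of these data known.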

Additional observations from a re-analysis of the deposited data

Results flagged for a closer look

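The prt6-1 effect differed between seeds and air-grown seedlings for 9 list genes, by the limma test of that difference in 1 fit of 18 arrays. For the globulin AT2G28490 it was 2.99 higher in seeds (adjusted p 0.0265), or 3.90 without Col-0 seed replicate 1. The gene read higher in prt6-1 than in Col-0 seeds and lower in prt6-1 than in Col-0 seedlings. AT4G36700, another cupin-family gene, gave -2.27 (adjusted p 0.0364), or -1.67 without that array. The LEA genes AtLEA4-1 and LEA18 gave 1.97 (adjusted p 0.00185) and 2.56 (adjusted p 0.00974), or 2.12 and 2.74 without that array. ICL gave -4.37 (adjusted p 1.95e-08), or -4.40 without that array, with prt6-1 and Col-0 close in seeds and far apart in seedlings. AT4G10790 gave -0.78 (adjusted p 0.00694), or -0.77 without that array. DELTA-VPE gave -0.60 (adjusted p 0.0454), or -0.59 without that array, being lower in prt6-1 in both tissues. CP1, a papain-like cysteine proteinase, gave -0.89 (adjusted p 0.0494), and its call was lost without Col-0 seed replicate 1 (-0.80, adjusted p 0.0607). The photosynthesis marker LHCB4.2 gave 1.27 (adjusted p 0.000567), or 1.14 without that array. With 1 of the 18 arrays left out at a time, the calls of ICL (-4.75 to -4.00), LHCB4.2 (1.14 to 1.36), AtLEA4-1 (1.79 to 2.13) and AT4G10790 (-0.85 to -0.71) held each time. That of LEA18 was lost without air Col-0 replicate 2 (2.32) or air prt6-1 replicate 2 (2.47). The call was lost for AT2G28490 without any of 7 single arrays (differences of 2.499 to 3.901 over the 18, adjusted p up to 0.0991) and for AT4G36700 without any of 12 (-2.58 to -1.67, up to 0.17). It was lost for CP1 without any of 14 (-1.11 to -0.67, up to 0.252) and for DELTA-VPE without any of 16 (-0.82 to -0.38, up to 0.27). The root marker EXPA7 differed in its hypoxia response between ate1 ate2 and Col-0 seedlings, by -0.82 (adjusted p 0.0478), a call lost without any of 10 of the 12 seedling arrays (-0.92 to -0.71, adjusted p up to 0.307).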

How the results depend on the processing

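Over 29 settings other than the one reported, 1706 values of members were recomputed: 1672 kept their side of the threshold, 16 lost a call, 18 gained one and 0 called values changed sign. With all arrays 0 members were called between prt6-1 and Col-0 seeds. The count was 1 after a further quantile normalization, median centring, an intensity trend or array weights, 2 in 1 fit of all 18 arrays, and 0 to 3 with 1 array left out, the 3 being without Col-0 seed replicate 1. Of the seedling counts, 1 in prt6-1 in air, 1 in ate1 ate2 in air and 1 in ate1 ate2 under hypoxia became 0 in the fit of all 18 arrays and with the dimmest 33.3% of probe sets left out, which removes all 5 members. The 2 in prt6-1 under hypoxia became 1 after quantile normalization, median centring, the fit of all 18 arrays or an adjusted p under 0.01, 0 without the dimmest 33.3%, and 1 to 2 with 1 array left out. The 5 in Col-0 seeds against seedlings became 3 at an adjusted p under 0.01, and 4 to 5 with 1 array left out. The 0 for the prt6-1 effect in seeds minus that in seedlings became 1 after quantile normalization, 3 with array weights, and 0 to 3 with 1 array left out. The remaining counts did not move with 1 array left out. Deviations of same-numbered replicates had r of -0.08 to -0.02 in seeds and -0.23 to 0.26 over 15 seedling pairs, of which 12 were positive and 7 over 0.1; as not every pair passed 0.1, the numbers were not taken as pairs, and with the replicate number as a block the counts of members were 0 in seeds, 1 and 1 in air, 2 and 1 under hypoxia, 5 and 5 for seeds against seedlings, and 0 elsewhere. The causes of these changes were not tested. Precision is limited by 2 or 3 arrays a group and by members that are dim in seedlings.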

Other observations

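AT2G47780, the lipid droplet gene called in 3 of the 4 seedling comparisons, read 6.61 and 6.51 in prt6-1 and 7.45 and 8.14 in ate1 ate2 under hypoxia, against 5.65 and 5.40 in Col-0. In air it read 6.09 and 6.39 in prt6-1 and 7.68 and 7.51 in ate1 ate2, against 5.21 and 5.90 in Col-0. In ate1 ate2 it was called higher than in Col-0 by 2.27 under hypoxia (limma adjusted p 3.46e-05) and by 2.04 in air (adjusted p 6.61e-05). Its call in prt6-1 under hypoxia (1.03, adjusted p 0.0135) was lost without any 1 of the 4 arrays compared (0.90 to 1.16). In seeds it averaged 11.98 in prt6-1 and 12.06 in Col-0.

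CP1 was called higher in ate1 ate2 than in Col-0 by 1.78 under hypoxia (limma adjusted p 0.000137) and 1.47 in air (adjusted p 0.000509). In prt6-1 it was 1.13 higher under hypoxia (adjusted p 0.00405) and 1.02 higher in air (adjusted p 0.00822). Those calls were lost without hypoxia Col-0 replicate 1 (1.00), and without air Col-0 replicate 1 (0.84) or air prt6-1 replicate 1 (0.80). AT4G36700 was higher in prt6-1 in air by 1.98 (adjusted p 0.000854), with 7.45 and 8.01 in prt6-1 against 5.62 and 5.87 in Col-0.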
